A study of Mus musculus with 18 samples.

Results

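Liver transcripts of mice fed a diet with 1% quercetin were set against those of mice fed a diet with 0.05% quercetin, across all measured genes. The comparison used 12 of the 18 arrays of the series, the 6 arrays labelled 1% quercetin and the 6 labelled 0.05% quercetin, chosen by diet label alone. The other 6 arrays came from mice on the same diet without quercetin and are given as a point of comparison. All mice were male C57BL/6J (the strain label itself is spelled C56BL/6J) from Charles River Japan, 5 weeks old at the start, and ate an AIN93G purified diet for 20 weeks. The mice on 1% quercetin and those on 0.05% quercetin differed, by the labels, only in the share of quercetin in that diet. Each array held liver RNA of 1 mouse, from 6 of the 12 mice per diet, housed 3 to a cage under a reversed light cycle. Which mice shared a cage is not labelled, so the part of the cage in any difference was not tested.

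Quercetin is a plant flavonol that the gut and liver conjugate with glucuronate, sulfate and methyl groups. The liver makes and burns fat, disposes of amino nitrogen through the urea cycle, and answers inflammatory signals by secreting acute phase proteins. It is also a main target of growth hormone, whose receptor acts through the kinase JAK2 and the factors STAT5A and STAT5B. STAT5 switches on genes of a feedback loop such as Cish and Socs2 and holds down the repressor gene Bcl6, and in males growth hormone reaches the liver in pulses.

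Every level below is a log2 intensity, log2 of the deposited value plus 16 after each array was shifted to a common median over the tested genes, and every difference is 1% minus 0.05% on that scale, with its standard error. The added 16 makes differences of dim genes smaller than they would be without it. Each gene is read from 1 probe set, and 12885 genes lay above the intensity filter at a mean log2 intensity of 4.69. Array medians over all probe sets are given in deposited linear intensity, before the shift. They lay between 14.2 and 21.1 in the 1% livers and between 14.7 and 21.9 in the 0.05% livers. One array stood apart: 1% replicate 1 had a mean correlation of 0.967 with the other arrays, against 0.977 to 0.980 for the other 5 arrays of its diet. Values without it are given where they move a result. In whole liver, fewer cells of a type and less RNA per cell cannot be told apart.

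No gene differed between 1% and 0.05% quercetin at an adjusted p under 0.05 in the limma fit of all 18 arrays (0 of 12885 tested genes, 0%). At an unadjusted p under 0.05 there were 1098 genes (8.52%), of which 600 were higher (4.66%) and 498 lower (3.86%) at 1%. The 6 mice on 1% and the 6 on 0.05% did not overlap for 88 genes (0.683%), 50 of them higher (0.388%) and 38 lower (0.295%) at 1%. The balance of the unadjusted calls depended on the scaling of the arrays. Of them 54.6% were higher after the shift to a common median, 34% on values as deposited (241 higher and 467 lower), 55.6% after quantile normalization (649 and 518) and 69.7% after a median shift over all probe sets (703 and 306).

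**Figure D1:**
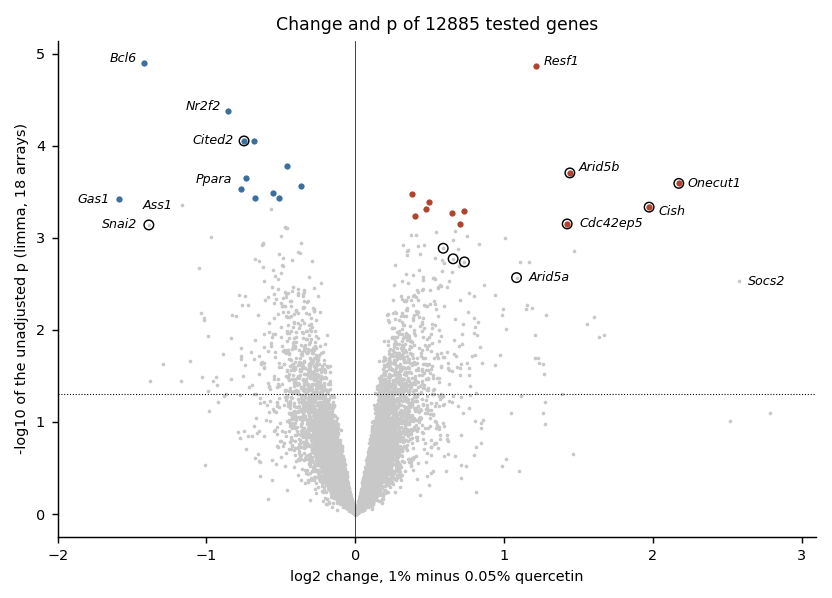
Difference between 1% and 0.05% quercetin (horizontal axis, log2) against -log10 of the unadjusted p (vertical axis) for the 12885 tested genes. Red and blue points are the 12 genes higher and the 12 lower at 1% with the smallest p, black circles the 10 genes that passed in a fit of the 12 arrays alone, and the dotted line is an unadjusted p of 0.05.

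The gene with the smallest p was Bcl6, a transcriptional repressor that STAT5 is known to silence. Its log2 intensity was 7.09 at the lowest, 8.42 at the median and 8.55 at the highest in mice on 1%, against 9.10, 9.46 and 9.88 in mice on 0.05%. All 6 mice on 1% lay below all 6 on 0.05%, with a difference of -1.42 ± 0.24 (limma adjusted p = 0.0885), and a second probe set of the gene gave -0.90. Without 1% replicate 1, the lowest mouse, the difference was -1.22.

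Cish, which encodes a STAT5-induced inhibitor of cytokine and growth hormone receptor signalling, had log2 intensities of 7.41, 8.53 and 9.38 (lowest, median and highest) at 1%, against 6.02, 6.34 and 6.99 at 0.05%. The groups did not overlap, and the difference was 1.98 ± 0.47 (limma adjusted p = 0.297). Socs2, a further feedback inhibitor of the growth hormone receptor, had log2 intensities of 8.51, 10.13 and 11.26 at 1%, against 6.53, 7.10 and 9.57 at 0.05%. Its groups overlapped through 0.05% replicate 6, and the difference was 2.58 ± 0.76 (limma adjusted p = 0.395). Socs2 has 4 other probe sets, whose differences ran from 0.21 to 2.67.

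Onecut1 encodes the hepatocyte factor HNF6, which growth hormone is known to induce in rodent liver. Its log2 intensity was 7.29, 7.84 and 8.71 at 1%, against 4.86, 5.77 and 6.62 at 0.05%. The groups did not overlap, and the difference of 2.18 ± 0.48 was the largest among the 24 genes with the smallest p (limma adjusted p = 0.297). A second probe set gave 1.84.

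The other genes of the pathway were read from a list of 14 tested members chosen after these values had been seen, and Bcl6, Cish, Socs2 and Onecut1 prompted it. Of the 10 members beside those 4, 4 were higher and 6 lower at 1%, with a median difference of -0.05. Ptpn1 was the 1 of these 10 with an unadjusted p under 0.05, which 4.66% of all tested genes had on the higher side and 3.86% on the lower. Ptpn1, a phosphatase that acts on JAK2, differed by 0.52 ± 0.24, and Socs3, an inhibitor induced mainly by cytokines, by 0.80 ± 0.64 with groups that overlapped. The receptor and its transducers were close to 0, with differences of 0.01 ± 0.10 for Ghr, -0.08 ± 0.10 for Jak2, -0.18 ± 0.14 for Stat5a and -0.12 ± 0.14 for Stat5b. Other probe sets gave -0.14 and -0.12 for Ghr and 0.01 for Stat5a, and those of Igf1 ran from -0.19 to 0.12. The growth hormone targets of the circulating growth factor system were also close to 0 or lower, at -0.02 ± 0.08 for Igf1, -0.19 ± 0.14 for Igfals, which encodes its carrier subunit, and -0.35 ± 0.26 for Igfbp3. Cux2, a female-biased repressor that depends on the growth hormone pattern, differed by 0.03 ± 0.14. The signs for Ghr, Igf1 and Cux2 changed with the scaling or with a single array left out.

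The livers without quercetin were spread over both levels of these genes. Cish stood at a log2 intensity of 7.04, 6.89 and 7.17 in control replicates 1, 2 and 3 and at 9.18, 9.19 and 9.79 in control replicates 4, 5 and 6. Socs2 stood at 7.28, 5.65 and 7.41 in the first 3 of these mice and at 10.13, 10.39 and 10.10 in the other 3. Onecut1 followed at 7.32, 5.99 and 5.71, then 8.59, 8.33 and 8.73. Bcl6 lay at 9.23, 8.46 and 8.62, then 8.29, 8.24 and 8.75. Control mice thus reached both the levels of the 1% mice and those of the 0.05% mice for Cish, Socs2 and Onecut1. The mice were caged by 3, and the labels do not say whether the replicate numbers follow the cages, so the part of the cage in this split was not tested. Mice of 1 cage need not be independent, and p-values here treat the 6 mice of a diet as if they were.

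The promoters of Cish, Bcl6 and Arid5b are shown as examples of windows with the palindrome TTCNNNGAA, the core of known STAT5 sites. Those of Socs3 and Igfals, described above, also hold it and are not shown. Arid5b passed in the 12-array fit described next. The motif was searched because Cish and Bcl6 had been seen to differ. It reads the same on both strands, and no other motif was searched. Each window runs from 250 bases before to 50 bases after a RefSeq start site in GRCm38.p6, on the strand of the gene, with matches in capitals. The Cish window is chr9:107296409-107296708 on the plus strand, the Bcl6 windows are chr16:23988803-23989102 and chr16:23981234-23981533 on the minus strand, and the Arid5b window is chr10:68278677-68278976 on the minus strand.
Cish: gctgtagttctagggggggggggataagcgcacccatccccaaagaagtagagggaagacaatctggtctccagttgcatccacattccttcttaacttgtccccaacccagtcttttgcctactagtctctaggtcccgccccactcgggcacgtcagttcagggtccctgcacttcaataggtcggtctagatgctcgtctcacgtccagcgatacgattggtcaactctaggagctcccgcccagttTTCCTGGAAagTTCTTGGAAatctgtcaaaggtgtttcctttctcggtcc
Bcl6, window 1: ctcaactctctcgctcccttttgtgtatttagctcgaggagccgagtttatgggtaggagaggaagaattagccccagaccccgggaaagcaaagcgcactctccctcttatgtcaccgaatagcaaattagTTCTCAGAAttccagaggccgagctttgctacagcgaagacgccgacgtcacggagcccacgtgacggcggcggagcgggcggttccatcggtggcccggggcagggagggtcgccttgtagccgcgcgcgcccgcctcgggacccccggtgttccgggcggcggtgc
Bcl6, window 2: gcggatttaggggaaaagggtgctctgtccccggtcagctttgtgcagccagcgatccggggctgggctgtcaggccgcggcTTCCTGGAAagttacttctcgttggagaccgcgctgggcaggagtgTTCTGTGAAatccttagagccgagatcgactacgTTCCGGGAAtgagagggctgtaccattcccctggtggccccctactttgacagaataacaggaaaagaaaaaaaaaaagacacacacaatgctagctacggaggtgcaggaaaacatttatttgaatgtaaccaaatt
Arid5b: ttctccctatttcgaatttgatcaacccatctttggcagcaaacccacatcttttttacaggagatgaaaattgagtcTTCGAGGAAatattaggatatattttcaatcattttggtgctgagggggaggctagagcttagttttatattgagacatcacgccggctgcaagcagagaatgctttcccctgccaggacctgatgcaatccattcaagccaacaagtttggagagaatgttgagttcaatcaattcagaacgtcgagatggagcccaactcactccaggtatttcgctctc

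The Cish window holds 2 matches, which begin at 0 and 11 bases from the start site, and the Bcl6 windows hold 1 and 3 matches, all before the start site. The Arid5b match begins at -172. The motif was found in the windows of 4 of the 20 genes of the 24 that had a window (20%), the other being Eef1e1, whose window is not shown. Without Cish and Bcl6, which prompted the search, it was 2 of 18 (11.1%), and over all tested genes with a window it was 8.35%. The 24 genes were picked by their p, so nothing is read from these shares. Onecut1 and Ppara had none in these letters. Socs2 had no window, so it was not searched. Socs3 had 1 match, at -154, and Igfals had matches at -236 and -58 in separate windows. On the growth hormone list, chosen after values were seen, 4 of 14 genes with a window held it (28.6%). Cish and Bcl6 were among them, and nothing is read from this share either. A match describes the sequence and is no measured binding site.

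In a fit restricted to the 12 arrays compared, which leaves out the spread of the control mice, 10 of 12885 genes passed at an adjusted p under 0.05 (0.0776%), of which 8 rose (0.0621%) and 2 fell (0.0155%) at 1%. The 1% and 0.05% mice did not overlap in any of the 10, and the control mean lay between the 2 diet means in all 10. The 10 were picked by their p in these same arrays, so both counts describe them and test nothing. Over all tested genes the diets did not overlap in 0.683%, and the control mean lay between them in 35.3%. For Snai2 the SD between mice was 0.38 at 1%, 0.24 at 0.05% and 1.05 in controls, and for Arid5a 0.26, 0.21 and 0.98. Standard errors given with rose or fell are those of the 12-array fit.

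Snai2 encodes a zinc finger repressor best known from cell migration and fibroblast-like states. Its log2 intensity was 5.37, 5.67 and 6.34 at 1%, against 6.96, 7.14 and 7.59 at 0.05%, and it fell by 1.39 ± 0.17 (limma adjusted p = 0.00683). It passed under all 16 alternatives of the 12-array fit (adjusted p 0.00391 to 0.0346), and a dimmer second probe set differed by -0.51. The 6 controls again spanned both levels, at 7.83, 8.11 and 7.59 in replicates 1 to 3 and 5.69, 5.91 and 6.37 in replicates 4 to 6.

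Arid5a, an RNA-binding protein known to stabilise inflammatory messengers, had log2 intensities of 5.88, 6.25 and 6.62 at 1%, against 4.81, 5.22 and 5.41 at 0.05%. It rose by 1.08 ± 0.13 (limma adjusted p = 0.00683) and passed under 15 of the 16 alternatives. Arid5b, a related DNA-binding factor with roles in fat storage, had log2 intensities of 9.05, 9.76 and 10.49 at 1%, against 8.09, 8.27 and 8.68 at 0.05%, and rose by 1.44 ± 0.21 (limma adjusted p = 0.0269), with 0.13 to 1.35 from its 3 other probe sets. Both genes stood in control replicates 4, 5 and 6 near the 1% mice and in control replicates 1, 2 and 3 near the 0.05% mice or beyond them.

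Onecut1 rose by 2.18 ± 0.32 and Cish by 1.98 ± 0.30 in this fit (limma adjusted p = 0.0269 for each). Cdc42ep5, an effector of the small GTPase CDC42, had log2 intensities of 7.90, 8.27 and 9.42 at 1%, against 6.57, 7.07 and 7.32 at 0.05%, and rose by 1.42 ± 0.22 (limma adjusted p = 0.0269). Controls of Cdc42ep5 stood at 6.27, 7.30 and 8.81 (lowest, median and highest) and reached both levels. Wdr45b, a protein of autophagosome formation, rose by 0.66 ± 0.10, and Pawr, a pro-apoptotic regulator, by 0.73 ± 0.12 (limma adjusted p = 0.0269 and 0.0315). The zinc finger gene Rlf rose by 0.59 ± 0.10 (limma adjusted p = 0.0465), while its other probe set differed by -0.09. Cited2, a co-regulator of CBP and p300 and brake on hypoxia signalling, fell by 0.75 ± 0.12 (limma adjusted p = 0.0323), at 7.89, 8.25 and 8.39 in 1% livers against 8.57, 8.99 and 9.24 in 0.05% livers, and its other probe set differed by -0.29.

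These 10 calls depended on single mice to different degrees. With each of the 12 arrays left out in turn, Snai2 and Arid5a passed in all 12 fits, Arid5b in 6, Onecut1 and Cdc42ep5 in 4, Cish and Wdr45b in 3, Pawr and Cited2 in 2 and Rlf in 1. Between 2 and 13 genes passed in those fits.

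**Figure D2:**
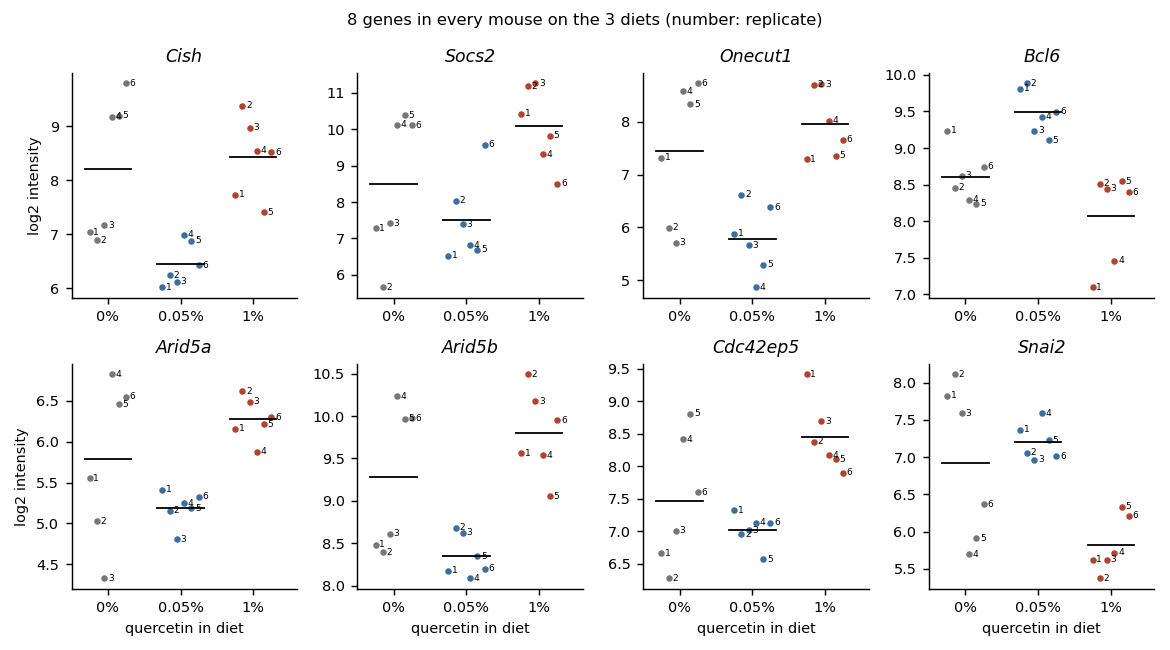
Log2 intensity of 8 genes in each mouse (vertical axis) on diets with 0%, 0.05% and 1% quercetin (horizontal axis), each point labelled with its replicate number and lines at the diet means. The 1% and 0.05% mice are apart in every panel but Socs2. Control mice of Cish, Socs2, Onecut1, Arid5a, Arid5b, Cdc42ep5 and Snai2 reach both levels.

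Among the 24 genes with the smallest p in the 18-array fit, the differences ran from 0.37 to 2.18 in size and the adjusted p from 0.0885 to 0.336. They were picked by their p, so the counts that follow describe them and test nothing. The diets did not overlap in 13 of the 24, and in all 24 every mouse on 1% lay beyond the 0.05% mean. The control mean lay between the 2 diets in 22 and below both in Rasl11b and Ppara. Over all tested genes it lay between them in 35.3%, and over the 1098 genes with an unadjusted p under 0.05 in 76.1%.

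Of the 12 that were higher at 1%, Resf1, a factor tied to retroelement silencing, had log2 intensities of 7.43, 8.14 and 8.73 at 1%, against 6.67, 6.77 and 7.90 at 0.05%. The difference was 1.21 ± 0.21 (limma adjusted p = 0.0885), with 0.37 to 0.57 from its 3 other probe sets, and the overlap came from 0.05% replicate 1 at 7.90. Without that mouse Resf1 was higher by 1.40 and passed (limma adjusted p = 0.00242), as it did without 1% replicate 5, at 1.37 (limma adjusted p = 0.0162), and in no other fit of the 18 arrays with 1 left out from these diets. Smaller differences of 0.38 to 0.73 were held by Prpf18, a splicing factor (0.38 ± 0.09), Eef1e1, a component of the aminoacyl-tRNA synthetase complex (0.50 ± 0.12), Sertad1, a cell cycle co-regulator (0.48 ± 0.11), Zpr1 (0.40 ± 0.10), Lonrf1 (0.65 ± 0.16), Palmd (0.73 ± 0.17) and Flywch2 (0.70 ± 0.17).

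Of the 12 that were lower at 1%, Ppara encodes the fatty acid receptor that drives hepatic fat oxidation in fasting. Its log2 intensity was 9.10, 9.91 and 10.05 at 1%, against 10.25, 10.50 and 10.79 at 0.05%, without overlap. The difference was -0.77 ± 0.17 (limma adjusted p = 0.297), with -0.32 and -0.56 from its other probe sets. The control livers, at 9.31, 9.77 and 10.24, lay with the 1% livers.

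Gas1, a membrane protein of growth arrest, had log2 intensities of 5.81, 7.24 and 7.80 at 1%, against 7.91, 8.61 and 9.46 at 0.05%, a difference of -1.59 ± 0.37 without overlap (limma adjusted p = 0.297). Nr2f2, the nuclear receptor COUP-TFII, had 7.14, 7.66 and 8.05 at 1%, against 8.30, 8.45 and 8.69 at 0.05%, a difference of -0.85 ± 0.16 without overlap (limma adjusted p = 0.179). The 4 other probe sets of Nr2f2 gave -0.64 to -0.09, and those of the chemokine-like gene Cklf, at -0.68 ± 0.14, gave -0.11 to -0.03. The rest were Mast3, a kinase (-0.68 ± 0.16), Rasl11b, a small GTPase (-0.73 ± 0.16), Whamm, an actin nucleation factor (-0.55 ± 0.13), Lgals12, a galectin of fat cells (-0.51 ± 0.12), Fam160b1 (-0.46 ± 0.10) and Dus2, a tRNA-modifying enzyme (-0.37 ± 0.08). A second probe set of Dus2 went the other way, at 0.19, and one of Whamm gave -0.22.

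**Figure D3:**
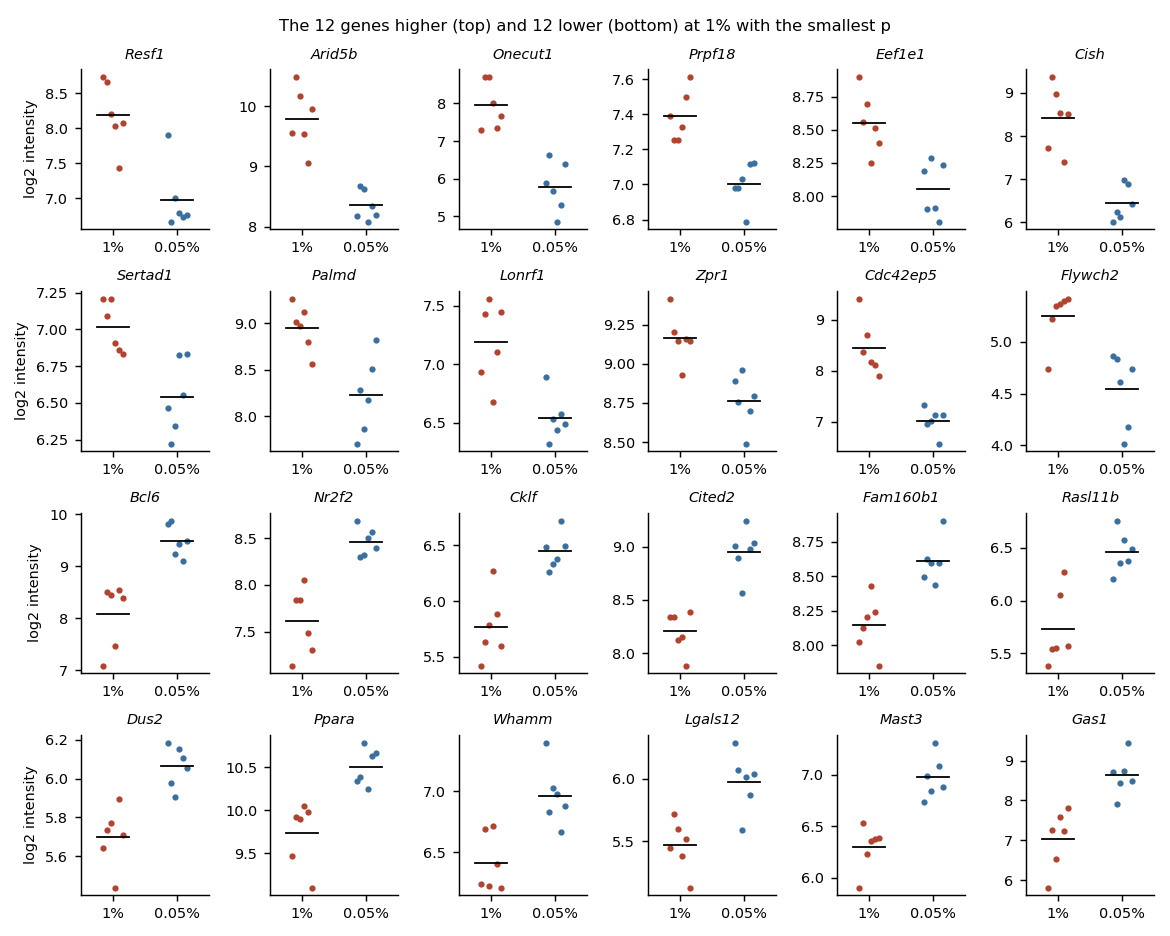
Log2 intensity in each mouse (vertical axis) on 1% quercetin (left in each panel, red) and 0.05% quercetin (right, blue) for the 12 genes higher and the 12 lower at 1% with the smallest p, with lines at the means. The groups do not overlap in 13 of the 24 panels.

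Gene lists are described by how many members were higher or lower at 1%, how many had an unadjusted p under 0.05 in the limma fit, and the median difference. Over all tested genes 50.2% were higher and 49.8% lower, 4.66% and 3.86% had such a p in each direction, and the median difference was 0.0007 (-0.05 on values as deposited). No list member passed after adjustment in the 18-array fit, and of the 38 lists only hepatocyte identity held a gene that passed in the 12-array fit, Onecut1. The members of a list are measured in the same mice. With each mouse left out in turn and under the 3 other scalings, the median of 24 of the 38 lists kept its sign. The other 14 were proteasome, NRF2, superoxide and thiol defence, complement, unfolded protein response, interferon, iron, hepatocyte identity, male-biased, Kupffer cell, cholesterol, clock, immediate early and pancreas genes, and their medians are given below with no direction read from them. In 7 lists no mouse moved the median by over 1.5 times either: amino acid catabolism, lobule zones, ribosomal proteins, glycogen, conjugating enzymes, endothelium and neutrophils.

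Genes of fatty acid and triglyceride synthesis were mostly lower at 1%. Of 34 tested members 31 were lower and 3 higher, 5 lower members and no higher one had an unadjusted p under 0.05, and the median difference was -0.31. Fasn, fatty acid synthase, averaged 9.92 ± 0.29 at 1% and 10.91 ± 0.95 at 0.05% (SD, n = 6 each), a difference of -0.99 ± 0.46. Thrsp, a lipogenic regulator, differed by -1.11 ± 0.44, Gpam, which starts glycerolipid synthesis, by -0.72 ± 0.33, Dgat2, which completes triglycerides, by -0.33 ± 0.12, and Pnpla5 by -0.76 ± 0.24. Srebf1, the transcription factor of the pathway, differed by -0.98 ± 0.52, and Scd1, the main desaturase, by -0.05 ± 0.09.

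The mice on 0.05% were spread more widely than those on 1%. Its mean, centred per gene on all arrays, ran from -0.42 to -0.18 in the 1% livers, against -0.42 to 0.46 in the 0.05% livers. In 0.05% replicates 4, 5 and 6 it was 0.46, 0.38 and 0.40, and in 0.05% replicates 1, 2 and 3 it was -0.02, -0.29 and -0.42. Controls ran from -0.37 to 0.73. The list median was -0.19 without 0.05% replicate 4 and -0.39 without 0.05% replicate 3.

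Fat oxidation genes were not lower as a list at 1%, where Ppara was lower. Of 39 tested targets of PPARA and genes of fatty acid oxidation 28 were higher and 11 lower, 1 in each direction had an unadjusted p under 0.05 (Slc22a5, the carnitine transporter, at 0.55 ± 0.24 and 0.17 by its other probe set, and Ppara itself), and the median was 0.05, or 0.0017 on values as deposited and 0.0076 without 0.05% replicate 2. Cpt1a, the entry step of mitochondrial oxidation, differed by 0.02 ± 0.12, and Cyp4a14, a microsomal oxidation target, by 0.75 ± 0.70. Cholesterol synthesis genes were 14 higher and 5 lower of 19, with a median of 0.11 that was -0.0048 without 0.05% replicate 3. Their 1 member with an unadjusted p under 0.05 was Cyp51, lanosterol demethylase, at 0.54 ± 0.18.

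Bile acid synthesis and transport genes were 4 higher and 18 lower of 22, with a median of -0.10 (-0.16 without 0.05% replicate 2). Their 3 lower members with an unadjusted p under 0.05 were Abcg5 and Abcg8, which together form the sterol exporter into bile, at -0.44 ± 0.14 and -0.43 ± 0.16, and Hsd3b7, an enzyme of bile acid synthesis, at -0.39 ± 0.18. Cyp7a1, the rate-limiting enzyme, differed by 0.55 ± 0.38.

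Amino acid catabolism and the urea cycle had the largest share of members with an unadjusted p under 0.05 in 1 direction among the lists of metabolism. Of 30 tested members 27 were lower and 3 higher at 1%, 10 lower (33.3%) and no higher member had such a p, and the median difference was -0.18. The list mean was -0.31 to -0.02 in the 1% livers, against 0.01 to 0.16 in the 0.05% livers. The diets did not overlap, which was not tested under other scalings, while controls ran from -0.11 to 0.32. The list median stayed between -0.20 and -0.14 with any single mouse left out.

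Ass1, argininosuccinate synthase of the urea cycle, had log2 intensities of 5.02, 5.62 and 6.42 at 1%, against 6.45, 6.77 and 7.57 at 0.05%. The groups did not overlap, the difference was -1.17 ± 0.27 (limma adjusted p = 0.297), and the gene was read from a single dim probe set. Gldc, the glycine cleavage enzyme, also had no overlap, at -0.31 ± 0.12. Glul, glutamine synthetase of the pericentral hepatocytes, differed by -0.25 ± 0.08, Oat by -0.50 ± 0.16, Tat, tyrosine aminotransferase, by -0.84 ± 0.30, Prodh by -0.41 ± 0.18 and Bckdhb by -0.26 ± 0.10. Otc, Nags and Haao had smaller differences of -0.20 ± 0.09, -0.24 ± 0.10 and -0.22 ± 0.10.

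Genes that mark the zones of the liver lobule share Ass1, Glul and Oat with that list. Of 19 tested members 17 were lower and 2 higher, 5 lower ones had an unadjusted p under 0.05, and the median was -0.22 (-0.17 without 1% replicate 1). The further 2 were Axin2, a target of WNT signalling, at -0.47 ± 0.15, and Tbx3, a pericentral factor, at -0.67 ± 0.24. List means ran from -0.28 to 0.0031 at 1%, against -0.05 to 0.20 at 0.05%.

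Genes of gluconeogenesis and fasting were 7 higher and 16 lower of 23, with a median of -0.06 (-0.11 without 0.05% replicate 2 and -0.03 without 1% replicate 6) and 3 lower members at an unadjusted p under 0.05, Tat, Klf15 (-0.64 ± 0.26) and Nr4a1 (-0.94 ± 0.41). Pck1 and G6pc, the committed enzymes of glucose output, differed by -0.22 ± 0.33 and -0.12 ± 0.33. Glycogen genes were 11 lower and 1 higher of 12, with a median of -0.18 and no member at an unadjusted p under 0.05. Ppp1r3c, a glycogen-targeting phosphatase subunit, differed by -0.88 ± 0.43.

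**Figure D4:**
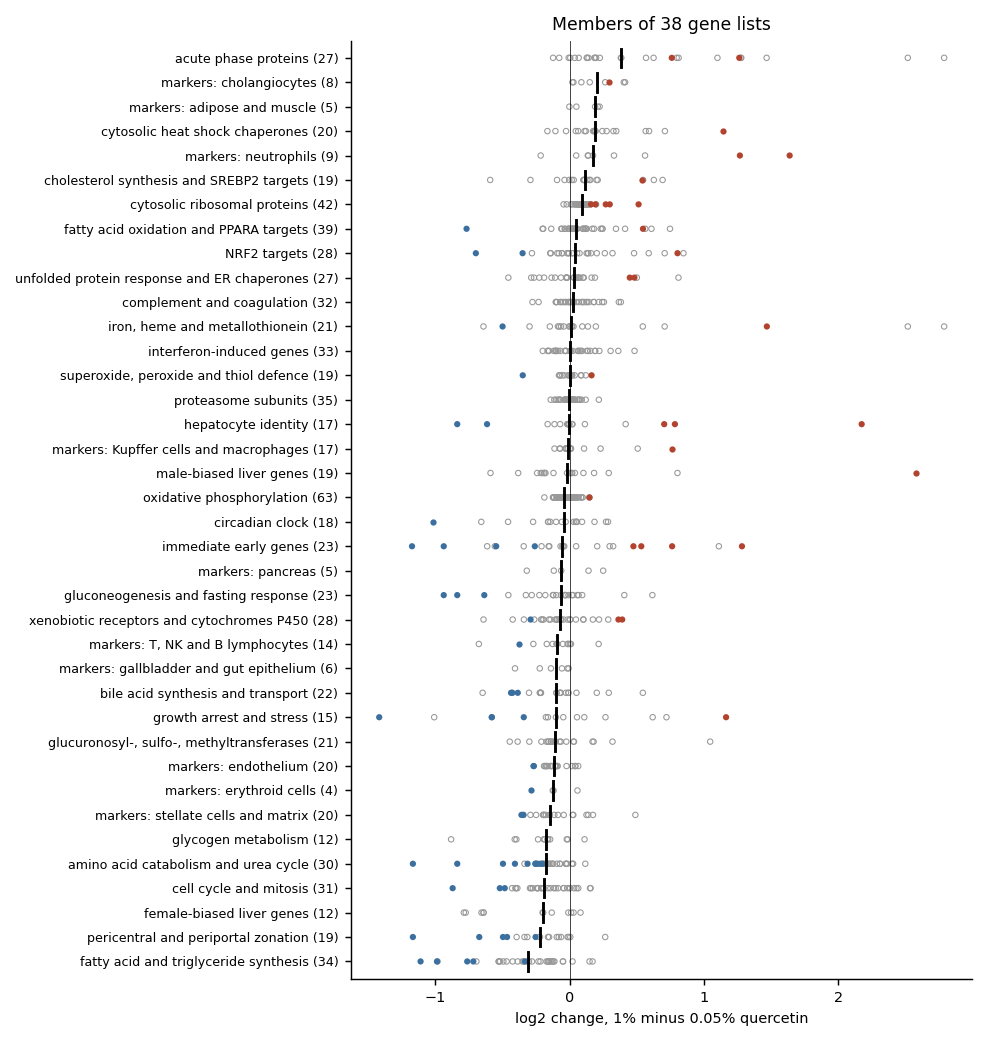
Difference between 1% and 0.05% quercetin (horizontal axis, log2) of every tested member of 38 gene lists (rows, with the number of tested members), sorted by median (black bar). Red and blue points have an unadjusted p under 0.05 and are higher or lower at 1%, grey circles do not, and the medians run from 0.38 for acute phase proteins to -0.31 for fatty acid and triglyceride synthesis.

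Acute phase genes were mostly higher at 1%, with wide spread between mice. Of 27 tested members 24 were higher and 3 lower, 2 had an unadjusted p under 0.05, and the median was 0.38, or 0.18 without 1% replicate 6 and 0.56 without 0.05% replicate 2. Cebpd, a transcription factor of the response, differed by 0.76 ± 0.25 (0.12 by its other probe set) and Il1r1, the interleukin 1 receptor, by 1.26 ± 0.51. The metallothionein Mt2 averaged 10.95 ± 2.27 at 1% and 8.16 ± 3.03 at 0.05% (SD, n = 6 each), a difference of 2.79 ± 1.51, and Saa1, serum amyloid A, differed by 1.28 ± 0.75.

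In single mice the acute phase mean was 0.34, -0.38, 0.04, -0.28, 1.06 and 1.01 in 1% replicates 1 to 6. In 0.05% replicates 1 to 6 it was -0.81, 1.27, 0.85, -1.07, -1.10 and -1.15. The mouse with the highest mean of the 12 was on 0.05%, and the 4 lowest were also on 0.05%. In control replicates 1 to 6 the acute phase mean was -0.81, -0.64, -0.92, 1.09, 1.10 and 0.41. All 1% means lay within this control range. Replicates 2 and 3 of 0.05%, the 2 with high acute phase means, had the lowest 2 means of that diet for fatty acid synthesis. At 1%, replicates 5 and 6, with the highest acute phase means, had fatty acid synthesis means of -0.22 and -0.23. The range at 1% was -0.42 to -0.18. In control replicates 1 to 3 the fatty acid synthesis mean was 0.37, 0.58 and 0.73, and in control replicates 4 to 6 -0.37, -0.12 and -0.10. The part of either list in the other was not tested.

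**Figure D5:**
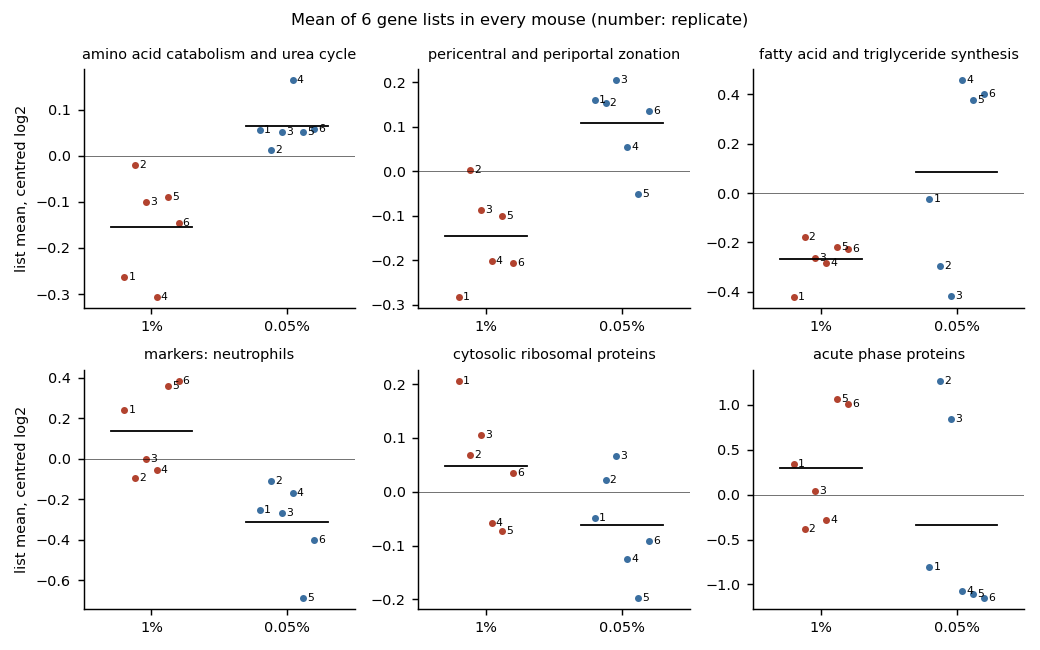
Mean of 6 gene lists in each mouse (vertical axis, log2 centred per gene on all 18 arrays) on 1% quercetin (left, red) and 0.05% quercetin (right, blue), each point labelled with its replicate number and lines at the diet means. The diets do not overlap for amino acid catabolism and neutrophil markers and overlap in the other 4 panels.

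Cytosolic ribosomal protein genes were 40 higher and 2 lower of 42 by small amounts, with a median of 0.09 (0.05 on values as deposited) and 5 higher members (11.9%) at an unadjusted p under 0.05. Rpl35 had no overlap, at 11.93, 12.09 and 12.32 in 1% livers against 11.66, 11.86 and 11.91 in 0.05% livers, a difference of 0.27 ± 0.07. Its other 5 probe sets gave -0.09 to 0.25, and ribosomal protein probe sets can take signal from pseudogenes. Proteasome genes were 17 higher and 18 lower of 35 with a median of -0.0026, and genes of oxidative phosphorylation 20 higher and 43 lower of 63 with a median of -0.04 (-0.01 without 1% replicate 4). Of these, Ndufa2 of complex I had an unadjusted p under 0.05, at 0.14 ± 0.07.

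Cytosolic heat shock chaperones were 17 higher and 3 lower of 20, with a median of 0.19. It was 0.13 without 0.05% replicate 6 and 0.31 without 0.05% replicate 1. The list mean was -0.70, -0.66 and -0.51 in 0.05% replicates 4, 5 and 6, and 0.35, -0.12 and 0.49 in 0.05% replicates 1, 2 and 3. At 1% it ran from -0.42 to 0.50, and in controls from -0.16 to 0.47. Hspb1, a small heat shock protein, was the 1 member with an unadjusted p under 0.05, at 10.85, 11.73 and 12.44 in 1% livers against 9.25, 10.64 and 11.61 in 0.05% livers, a difference of 1.15 ± 0.37. Genes of the unfolded protein response were 15 higher and 12 lower of 27, with a median of 0.03 (-0.01 on values as deposited). Xbp1, the secretory stress factor, differed by 0.48 ± 0.15 and its activator Ern1 by 0.45 ± 0.19, or 0.25 without 1% replicate 1 and 0.08 to 0.54 by its other probe sets.

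NRF2 targets, the electrophile and oxidant response genes, showed 16 higher and 12 lower of 28 and a median of 0.04, which was -0.03 without 1% replicate 1 and -0.01 on values as deposited. The list mean of 1% replicate 1 was 0.88, against -0.14 to 0.10 in the other 1% mice. Osgin1 differed by 0.80 ± 0.31 (0.56 without 1% replicate 1), and the glutathione transferase Gstm2 and the esterase Ces2g by -0.70 ± 0.27 and -0.35 ± 0.14. Srxn1, sulfiredoxin, averaged 8.67 ± 1.98 at 1% and 7.82 ± 0.20 at 0.05% (SD, n = 6 each), and Nqo1 differed by -0.14 ± 0.16. Srxn1 thus varied far more between mice at 1%, and no value without 1% replicate 1 is given for it. Genes of superoxide, peroxide and thiol defence were 10 higher and 9 lower of 19 with a median of 0.0005. Gpx4, the lipid peroxide reductase, had no overlap, at 11.79, 11.83 and 11.91 in 1% livers against 11.58, 11.67 and 11.76 in 0.05% livers (0.16 ± 0.07), and extracellular Sod3 differed by -0.35 ± 0.11.

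Among the enzymes that conjugate flavonols, glucuronosyl-, sulfo- and methyltransferases were 6 higher and 15 lower of 21, with a median of -0.11 and no member at an unadjusted p under 0.05. Ugt2b38 differed by 1.05 ± 0.56, Ugt3a1 by -0.30 ± 0.15, Sult1b1 by -0.39 ± 0.21 and Sult1a1 by -0.21 ± 0.17. Xenobiotic receptors and cytochromes P450 were 10 higher and 18 lower of 28 with a median of -0.07 (-0.03 without 1% replicate 4). Arnt, the partner of the aryl hydrocarbon receptor, had no overlap, at 0.36 ± 0.13 (-0.02 to 0.31 by its other probe sets), Cyp3a13 differed by 0.39 ± 0.15 and Cyp3a25 by -0.29 ± 0.12. Cyp1a1 and Cyp1a2, classical targets of that receptor, differed by 0.17 ± 0.16 and -0.08 ± 0.16.

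Hepatocyte factors differed in both directions. Of 17 tested members 7 were higher and 10 lower with a median of -0.01, but 3 were higher and 2 lower at an unadjusted p under 0.05. Beside Onecut1 these were the pioneer factors Foxa1 (0.78 ± 0.31) and Foxa2 (0.70 ± 0.30), and on the lower side Tat and Prox1 (-0.61 ± 0.25). Immediate early genes also split, with 4 higher and 4 lower at an unadjusted p under 0.05 among 9 higher and 14 lower of 23, and a median of -0.05. Fosl2 (0.76 ± 0.23, and 0.28 by its other probe set), Ier3 (0.53 ± 0.17), Klf6 (0.48 ± 0.20) and Myc (1.28 ± 0.42) were higher, and Nr4a1, Jund (-0.26 ± 0.11), Zfp36 (-0.55 ± 0.24) and Ccn1 (-1.17 ± 0.52) lower. The Myc difference was 0.84 without 1% replicate 1, which held its highest value at 9.22.

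Growth arrest and stress genes, which include Bcl6, were 6 higher and 9 lower of 15 with a median of -0.10 (-0.05 without 1% replicate 3). Plk3, a stress kinase, was higher by 1.17 ± 0.32, and Sesn2, Ddit4 and Bbc3 were lower, at -0.34 ± 0.15, -0.58 ± 0.26 and -0.58 ± 0.27. Cell cycle genes were 7 higher and 24 lower of 31 with a median of -0.19 (-0.08 without 0.05% replicate 4), the 3 lower ones at an unadjusted p under 0.05 being the mitotic genes Aurka (-0.52 ± 0.15), Kif20a (-0.48 ± 0.16) and Cdc20 (-0.87 ± 0.42, and -0.71 to 0.0027 by its other probe sets).

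Of 21 iron, heme and metallothionein genes 12 were higher and 9 lower, with a median of 0.01 (-0.03 on values as deposited). Alas1, the rate-limiting enzyme of heme synthesis in liver, had log2 intensities of 10.89, 11.45 and 12.00 at 1%, against 8.98, 9.91 and 11.35 at 0.05%, a difference of 1.47 ± 0.39, with 1.65 from its other probe set. Hjv, the hemojuvelin gene that feeds hepcidin control, differed by -0.50 ± 0.17. Clock genes were 8 higher and 10 lower of 18 with a median of -0.04, and Nr1d1, the repressor REV-ERB alpha, differed by -1.01 ± 0.34. Dbp and Per2, clock outputs that swing widely over a day, differed by -0.46 ± 0.74 and -0.10 ± 0.35.

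Of the sex-biased liver genes, 8 male-biased ones were higher and 11 lower of 19 with a median of -0.02 (0.01 after a median shift over all probe sets), Socs2 being the 1 member at an unadjusted p under 0.05. Female-biased ones were 3 higher and 9 lower of 12 with a median of -0.20, and none had such a p. The median was -0.57 without 0.05% replicate 2, -0.31 without 1% replicate 1 and -0.04 without 0.05% replicate 5. Interferon-induced genes were 19 higher and 14 lower of 33 with a median of 0.01, and genes of complement and coagulation 20 higher and 12 lower of 32 with a median of 0.03, both below 0 on values as deposited, and neither list had a member at an unadjusted p under 0.05.

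Of the markers of other cells in the liver, neutrophil markers were 8 higher and 1 lower of the 9 tested from a list of 14. Their median was 0.17, with list means of -0.0955 to 0.38 at 1%, against -0.69 to -0.108 at 0.05%. These ranges did not overlap but nearly met, and their separation was not tested under other scalings. The summed intensity of those 9 genes ran from 481 to 1056 in the 1% livers, against 293 to 463 in the 0.05% livers, and from 338 to 1632 in controls. This sum, like the other summed intensities below, is in linear units after the shift and includes the 16 added to each gene. The added constant takes a larger share of the sum where the genes are dim. S100a8, a calprotectin subunit, had log2 intensities of 6.81, 7.35 and 8.86 at 1%, against 5.08, 6.04 and 6.75 at 0.05%, a difference of 1.64 ± 0.59 (limma adjusted p = 0.476). S100a9, its partner, differed by 1.27 ± 0.54, and the receptor Csf3r by 0.56 ± 0.27. The part of neutrophils in the acute phase values was not tested.

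Kupffer cell and macrophage markers were 8 higher and 9 lower of 17 with a median of -0.01 (0.02 without 1% replicate 1), with Cd14 at 0.76 ± 0.33. Endothelial markers were 4 higher and 16 lower of 20 with a median of -0.12, and Cdh5 and Ehd3 had the 2 lower values at an unadjusted p under 0.05, at -0.27 ± 0.10 and -0.27 ± 0.12, with -0.57 from the other probe set of Ehd3. Stellate cell and matrix markers were 6 higher and 14 lower of 20 with a median of -0.15 (-0.10 without 1% replicate 5), Ecm1 and Ngfr being lower by that measure at -0.34 ± 0.12 and -0.36 ± 0.14. Their summed intensity was 4885 to 6553 in 1% livers, against 5745 to 7113 in 0.05% livers. The part of these cells in the values of Snai2, Gas1 and Nr2f2 was not tested.

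Cholangiocyte markers were higher in 8 of the 8 tested from a list of 14, with a median of 0.21 that was 0.11 without 1% replicate 1, and Tspan8 had an unadjusted p under 0.05 at 0.30 ± 0.14, with -0.15 to 0.08 from its other probe sets. Lymphocyte markers were 3 higher and 11 lower of 14 with a median of -0.09 (-0.24 without 0.05% replicate 1 and -0.0080 without 1% replicate 2), with Cd8a at -0.37 ± 0.16 and -0.05 by its other probe set. Not all listed markers of tissue outside the liver parenchyma had a single-symbol probe set. Of those with one, 4 of 8 passed the filter for erythroid cells (14 listed, median -0.12, Alas2 at -0.29 ± 0.12) and 5 of 12 for pancreas (18 listed, median -0.06). It was 5 of 13 for adipose and muscle (15 listed, median 0.19) and 6 of 13 for gallbladder and gut (13 listed, median -0.10). Without 0.05% replicate 3 the adipose and muscle median was 0.06, without 0.05% replicate 2 the erythroid median was -0.07, and without 1% replicate 6 that of gallbladder and gut was -0.04. The last 3 lists had no member at an unadjusted p under 0.05. The defining hepatocyte genes were strong in all 12 livers, with a summed intensity of 70869 to 93809 at 1%, against 71739 to 97721 at 0.05%.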

How the data were processed

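Linear intensity values of 45101 probe sets on an Affymetrix mouse array were deposited by the authors for 18 livers, made from biotin-labelled RNA with a 3′ kit, per the labels' protocols. The software and scaling behind them are, in the sources used here, not given. Controls, 932 probe sets with several gene symbols and 9160 with none were left out, and the highest of each gene's single-symbol probe sets was kept. Values were turned to log2 after adding 16 and shifted to a common median, and genes above the 40th percentile (12885) were fitted with limma 3.58.1 (R 4.3.3, lmFit and eBayes) to 3 diet means over 18 arrays, with 15 residual degrees of freedom and a two-sided Benjamini-Hochberg adjusted p under 0.05. The median standard error was 0.13, and the number of arrays limits precision. The fit was tested on simulated data, with independent mice and a spread per gene common to all diets. Cages and unequal spread between diets were left out, so the simulation does not speak to p-values where these matter. Arrays were compared and no 2 held identical values. Standard errors are from the 18-array fit unless stated.

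The genes named were the 12 with the smallest p in each direction, the 3 with the smallest p of each list, and further list members that complete a pathway. The other genes that passed in the 12-array fit, and the growth hormone list, were chosen after their values were seen. The comparison, the 38 lists and the tests were chosen with earlier results of these data known. Alternatives were other scalings, filters and added constants, means of probe sets, eBayes options, array weights, the 12 arrays alone, replicate blocks and leaving out each array. Promoter sequences are from RefSeq (GRCm38.p6).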

Additional observations from a re-analysis of the deposited data

Results flagged for a closer look

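Of 207 groups of 6 values checked, 11 held 1 mouse far from the other 5, and chance marks about 1 in 20 groups. At 1%, replicate 1 had the lowest mean correlation with the other arrays (0.967, others 0.977 to 0.980), the highest NRF2 target mean (0.88, others -0.14 to 0.10) and the lowest Flywch2 log2 intensity (4.74, others 5.22 to 5.42). At 1%, replicate 4 had the lowest means of clock genes (-0.40, others -0.09 to 0.07) and of glucuronosyl-, sulfo- and methyltransferases (-0.26, others -0.06 to 0.03).

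At 0.05%, Resf1 stood at a log2 intensity of 7.90 in replicate 1 (others 6.67 to 6.996). The amino acid catabolism mean was 0.16 in replicate 4 (others 0.01 to 0.06). In 0.05% replicate 2 the clock gene mean was -0.27 (others 0.06 to 0.17) and the cholangiocyte marker mean 0.33 (others -0.31 to -0.08).

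Among controls, replicate 3 stood apart in the mean of fat oxidation and PPARA targets (0.43, others -0.49 to -0.27) and in that of female-biased genes (1.13, others -0.67 to -0.31).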

How the results depend on the processing

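No gene passed in the 18-array fit under the other scalings, filters, added constants, eBayes options, array weights or means of probe sets, nor with a replicate block (0 genes, and 1007 at an unadjusted p under 0.05). Deviations of same-numbered mice correlated between -0.34 and 0.20, over 0.1 in 1 of 6 pairs, and 1 of 6 mice correlated best with its own number, so the numbers were not taken as pairs. At an adjusted p under 0.10 the 18-array fit passed 2 genes. With only the 12 arrays compared 10 genes passed at 0.05. With single arrays left out, 0 to 1 passed, the 1 being Resf1 without 0.05% replicate 1 (1.40, limma adjusted p = 0.00242) or without 1% replicate 5 (1.37, limma adjusted p = 0.0162). Values as deposited gave 708 genes at an unadjusted p under 0.05 with 241 higher, and a median shift over all probe sets gave 306 lower. In the 12-array fit 7 genes passed on values as deposited, 10 after quantile normalization, 12 with trend and robust eBayes, 7 with the replicate block and 2 to 13 with an array left out. The causes were not tested.

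Of 146 genes followed, 4 with differences near 0 changed sign. Ghr was -0.0348 on values as deposited, -0.0122 after quantile normalization, -0.00659 with the 60th percentile filter, -0.0773 as a mean of probe sets and -0.0340 to 0.0710 with an array left out. Cux2 was -0.0188 on values as deposited and -0.0416 to 0.106 with an array left out. Igf1 was 0.00793 after the shift over all probe sets, 0.00856 as a mean of probe sets and -0.0634 to 0.0167 with an array left out. Klf1, an erythroid marker, was -0.219 to 0.00884 with an array left out.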
